A study of Mus musculus with 24 samples.

Results

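The genes described here encode the proteins of the cytosolic ribosome. They were taken by symbol alone, as every protein-coding gene of the GENCODE mouse annotation named Rpl or Rps with a number and an optional letter, together with Rplp0, Rplp1, Rplp2 and Rpsa. The S6 kinases, the pseudogenes and the mitochondrial ribosomal proteins were left out. The rule gave 80 of the 55335 genes measured, of which 30 belong to the small subunit, 43 to the large subunit and 3 to the stalk, and 4 are paralogs with restricted or induced expression (Rpl3l, Rpl10l, Rpl39l and Rps27l). No expression value entered the rule. RNA was sequenced from whole mouse tumours of 2 transplantable lines, MC38, a colon carcinoma, and B16, a melanoma. In each line the tumour cells were either parental with intact CHEK2 (WT) or a CHEK2 knockout (KO), and the mice received the vehicle PBS or an antibody against the T cell checkpoint receptor PD-1. The 8 groups held 3 libraries each, and levels were given in FPKM, fragments scaled by transcript length and library size. The alteration was in the tumour cells, so stromal and immune cells of the host keep their own Chek2. The labels give neither the number of clones behind a knockout line nor the strain, sex or age of the mice, nor whether the libraries of a group stem from different mice, so p-values here measure the spread between libraries.

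A ribosome pairs a small subunit, which reads the messenger RNA, with a large subunit, which joins amino acids and carries a flexible stalk that recruits the elongation factors. Nearly every ribosomal protein is needed in equal amounts, and surplus copies are degraded, so the genes are usually expressed together and at high levels in dividing cells. Their transcripts typically begin with a C and a run of pyrimidines, the terminal oligopyrimidine tract, through which mTORC1 and Larp1 control their translation. Free Rpl5 and Rpl11 can also bind Mdm2 and thereby stabilise p53, a pathway on which the checkpoint kinase encoded by Chek2 acts as well.

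The promoter shows this family trait in its letters. RefSeq (GRCm38.p6) had an entry for 60 of the 80 genes. A run of at least 5 C or T letters that begins with C and lies within 5 bases of the annotated start was found in 27 of them (45.0%), against 18.5% of 27025 promoters in the table. The motif CCGGAAG, the core bound by ETS-family factors such as GABP, was present on either strand of the 300-base window in 24 (40%), against 9.12% of all promoters. GGGCGG was present in 35 (58.3%, against 35.9%), AAGATGGC in 4 (6.67%, against 2.88%) and TATAAA in 5 (8.33%, against 14.2%). The windows below span 20 bases before to 20 bases after the annotated start, with the pyrimidine run in capitals. Rps18 and Rpl27a are shown as examples of the run, and the others because their expression is described further on. The last 2, of the X-linked genes Rps4x and Rpl10, hold no such run. The search depends on the annotated start. Rpl4 and Rps25 also count as without a run, though their windows hold long C and T stretches that begin more than 5 bases from it. The lack of a run here thus does not settle how the transcripts begin.
Rps6, chr4:86857348-86857387, minus strand: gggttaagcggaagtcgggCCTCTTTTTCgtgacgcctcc
Rplp2, chr7:141447631-141447670, plus strand: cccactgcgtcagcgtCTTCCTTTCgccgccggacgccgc
Rpl28, chr7:4792945-4792984, plus strand: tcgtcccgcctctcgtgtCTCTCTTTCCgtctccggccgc
Rps18, chr17:33955646-33955685, minus strand: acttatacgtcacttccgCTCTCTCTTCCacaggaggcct
Rpl27a, chr7:109519175-109519214, plus strand: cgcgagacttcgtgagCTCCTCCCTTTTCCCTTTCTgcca
Rps4x, chrX:102189372-102189411, minus strand: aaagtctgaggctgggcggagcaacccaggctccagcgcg
Rpl10, chrX:74270796-74270835, plus strand: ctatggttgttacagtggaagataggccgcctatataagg

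The depth inferred from the smallest step between low values was about 13600000 to 24300000 reads per library. Chek2 itself, the check of the genotype, was lower in every KO library than in every WT library of the same line and treatment, but it was not absent. In MC38 under PBS it was 6.14, 5.15 and 4.61 FPKM in WT and 2.20, 2.40 and 1.92 FPKM in KO. In B16 under PBS it was 7.70, 7.93 and 7.17 FPKM in WT and 5.68, 5.64 and 5.67 FPKM in KO, a difference that did not pass the test. Under anti-PD-1 in B16, Chek2 was called lower, at means of 6.42 FPKM in KO and 8.22 FPKM in WT (limma adjusted p = 0.0154). In MC38 it was called lower under PBS and under anti-PD-1 (limma adjusted p = 0.000178 and 0.00375). Melanocyte markers summed to 4698 to 6057 FPKM in B16 and to at most 0.40 FPKM in MC38, while 5 epithelial markers summed to only 1.16 to 47.9 FPKM in MC38. Skeletal muscle markers (12 genes) summed to 13.7 to 2310 FPKM in B16 KO anti-PD-1, to 2.07 to 4.52 FPKM in the other B16 groups and to 1.28 to 580 FPKM in MC38.

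Of the 80 genes, 77 reached 1 FPKM in at least 3 libraries of both lines and were tested. Among these the mean over all libraries ran from 64.3 FPKM for Rps15a to 1783 FPKM for Rplp1, an acidic protein of the stalk. Rplp1 was the highest in both lines, at 1214 to 3314 FPKM in single libraries. FPKM is scaled by transcript length, so these levels can be set beside each other roughly. The reservations on pseudogenes and on transcript length given below apply.

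The 3 genes under the filter are paralogs. Rpl10l, known from the testis, was listed at 0 in 23 libraries and at 0.0458 FPKM in 1 MC38 WT anti-PD-1 library. Rpl39l, a paralog of the exit-tunnel protein Rpl39 that is best known from male germ cells, reached at most 1.33 FPKM, in an MC38 KO anti-PD-1 library. Rpl3l, which takes the place of Rpl3 in striated muscle, was 5.77, 0.548 and 0.0620 FPKM in B16 KO anti-PD-1 and 0 to 0.121 FPKM in the other B16 libraries. The muscle actin Acta1 was 728, 59.2 and 3.20 FPKM in the same 3 B16 KO anti-PD-1 libraries. In MC38 the highest Rpl3l values, 0.697 FPKM in a WT and 0.901 FPKM in a KO anti-PD-1 library, were likewise in the libraries with the highest Acta1, 95.2 and 143 FPKM. Rpl3l was thus high where muscle transcripts were high. Whether it came from muscle tissue was not tested.

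The fourth paralog, Rps27l, a p53-induced relative of the small-subunit protein Rps27, was expressed at the level of an ordinary member. It lies on chr9:66946086-66949516 (mm10, plus strand). Its coding sequence differs from that of Rps27 at 61 of 255 bases (76.1% identity), which shows how far reads of the genes can be told apart. Both are given from the mm10 genome and GENCODE, with the differing bases in capitals.
Rps27: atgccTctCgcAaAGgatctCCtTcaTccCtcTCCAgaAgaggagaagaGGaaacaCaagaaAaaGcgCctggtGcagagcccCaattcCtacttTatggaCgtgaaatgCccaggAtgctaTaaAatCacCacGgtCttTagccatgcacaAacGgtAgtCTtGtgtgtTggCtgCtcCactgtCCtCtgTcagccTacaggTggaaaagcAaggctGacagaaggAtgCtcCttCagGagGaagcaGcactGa
Rps27l: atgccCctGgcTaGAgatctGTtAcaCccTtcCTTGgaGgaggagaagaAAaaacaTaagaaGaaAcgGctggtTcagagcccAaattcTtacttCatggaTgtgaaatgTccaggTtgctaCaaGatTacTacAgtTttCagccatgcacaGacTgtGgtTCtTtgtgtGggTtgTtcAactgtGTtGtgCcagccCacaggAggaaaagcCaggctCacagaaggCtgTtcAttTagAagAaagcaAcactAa
In MC38, Rps27l ranged from 108 to 144 FPKM. In B16 it was 177, 175 and 174 FPKM in WT PBS, 158, 171 and 185 FPKM in KO PBS, 168, 152 and 174 FPKM in WT anti-PD-1 and 242, 242 and 183 FPKM in KO anti-PD-1. Only the last group was high, and its lowest library overlapped with KO PBS. Rps27 was 233, 239 and 156 FPKM in KO PBS and 266, 295 and 258 FPKM in KO anti-PD-1, with no overlap.

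Ribosomal protein genes have many processed pseudogenes, and reads of near-identical copies can be split between them. The annotation names 297 pseudogenes after 59 of the 80 genes, and 255 of them had a value above 0. Their sum was 21.1 to 24.2% of the sum of the genes in each library. For 9 genes the pseudogenes together were listed above the parent gene. The extreme case was Rpl31, at a mean of 288 FPKM against 462 FPKM for Rpl31-ps8 alone. The pseudogene holds the whole Rpl31 coding sequence of 378 bases with 0 mismatches, at chr15:90764279-90764656 (mm10, minus strand), so reads of this stretch cannot be assigned. Its first 120 bases, the same in gene and pseudogene, are shown.
Rpl31-ps8: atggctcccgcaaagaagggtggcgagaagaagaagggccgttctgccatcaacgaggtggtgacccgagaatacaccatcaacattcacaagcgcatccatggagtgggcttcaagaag
Rpl31-ps8 was 430 FPKM on average in B16 KO PBS and 817 FPKM in B16 KO anti-PD-1, so the values of Rpl31 are uncertain. The same holds for Rpl35a, Rpl36a, Rps15a and Rps10, whose named pseudogenes took 67.0%, 66.4%, 59.2% and 58.7% of the combined value, and for Rpl10 at 46.9%. Adding the pseudogenes to their parents, a choice made after the data were seen, left the count of called genes within 1.5 times in every comparison.

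The summed level of the 80 genes was highest in the B16 KO anti-PD-1 tumours. It was 33556, 38116 and 35171 FPKM there, and it was 25182, 25561 and 21782 FPKM in B16 KO PBS. In B16 WT it was 27273, 26815 and 24886 FPKM under PBS and 29192, 24654 and 25750 FPKM under anti-PD-1. The 3 B16 KO anti-PD-1 libraries lay above all others, and the third B16 KO PBS library was the lowest of all 24. In MC38 the sum was 24782, 25437 and 28074 FPKM in WT PBS, 23419, 23640 and 25068 FPKM in KO PBS, 25527, 23903 and 26964 FPKM in WT anti-PD-1 and 24882, 23057 and 22282 FPKM in KO anti-PD-1, and all groups overlapped. As a share of the FPKM of all protein-coding genes, the sum was 10.3, 12.2 and 11.6% in B16 KO anti-PD-1 and 8.17 to 11.0% in the other 21 libraries. On that scale one B16 KO anti-PD-1 library fell within the range of the others, since the protein-coding sum itself was higher in this group.

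**Figure D1:**
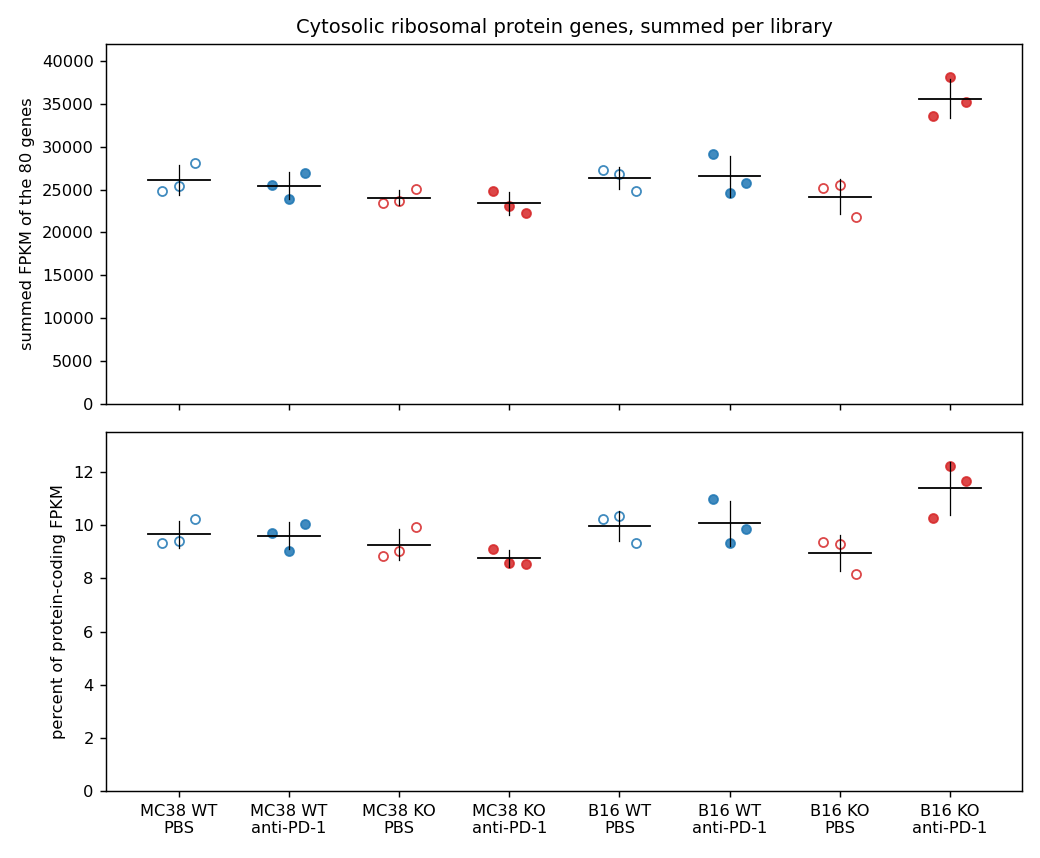
Summed level of the 80 ribosomal protein genes in the 24 libraries by group, in FPKM (upper panel) and as a percentage of the FPKM of all protein-coding genes (lower panel), with the mean ± SD of 3 libraries as bars (blue WT, red KO, open PBS, filled anti-PD-1). The 3 B16 KO anti-PD-1 libraries lie at 33556 to 38116 FPKM, above the 21782 to 29192 FPKM of the other 21, and at 10.3 to 12.2%, where the lowest of them is within the range of the others.

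In B16 KO tumours, 73 of the 77 tested genes were higher under anti-PD-1 than under PBS and none was lower (limma on log2(FPKM + 1), adjusted p under 0.05), against 43.9% of all genes tested called in either direction and 18.9% called higher. Of the other genes with a mean of 50 FPKM or more, 44.2% were called higher, so a rise was common among highly expressed genes in general. The median difference was 0.54 on the log2 scale, with a range of 0.08 to 0.89, against -0.03 over all genes tested and 0.25 over the other highly expressed genes. The groups did not overlap for 73 of the 77, against 24.2% of all genes. All 30 small-subunit genes (median 0.62), 39 of 43 large-subunit genes (median 0.49) and all 3 stalk genes were called, as was Rps27l. In a whole tumour, a larger share of cells rich in these transcripts and more of them per cell cannot be told apart. The differences of other genes also ran with transcript length, as given below, and the part of this in the result was not tested.

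All 3 stalk genes rose. Rplp2 was 116, 120 and 79.98 FPKM under PBS and 190, 203 and 178 FPKM under anti-PD-1. The groups were wide apart, and the third PBS library was the lowest. The difference was 0.87 ± 0.156 on the log2 scale (SE, n = 3 and 3, limma adjusted p = 0.00148). Rplp0, the stalk base, was 842, 858 and 559 FPKM under PBS and 1080, 1212 and 1182 FPKM under anti-PD-1, without overlap. Rplp1 was 2055, 2008 and 1270 FPKM and 2672, 3314 and 2745 FPKM. For both, the third PBS library was again far below its partners. The differences were 0.64 ± 0.142 for Rplp0 (limma adjusted p = 0.00455) and 0.74 ± 0.179 for Rplp1 (limma adjusted p = 0.0075).

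In the small subunit, Rpsa, also known as the laminin receptor, was 522, 508 and 366 FPKM under PBS and 711, 776 and 763 FPKM under anti-PD-1, a difference of 0.71 ± 0.145 (limma adjusted p = 0.00305). Rps6, the substrate of the S6 kinases, was 386, 381 and 313 FPKM and 479, 562 and 559 FPKM, a difference of 0.57 ± 0.115 (limma adjusted p = 0.00287). Neither gene overlapped between the groups. Rps4x was 632, 661 and 582 FPKM and 859, 1031 and 923 FPKM, and this X-linked gene rose by 0.58 ± 0.0818 (limma adjusted p = 0.000361). Rps27a, made as a fusion with ubiquitin, was 203, 190 and 153 FPKM and 256, 308 and 254 FPKM, a rise of 0.59 (limma adjusted p = 0.00261). Rps27 rose by 0.41 and Rps27l by 0.37, with limma adjusted p = 0.0425 and 0.021. Both calls were weak: the first was lost under 8 and the second under 7 of 13 alternatives.

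In the large subunit, Rpl13 showed the highest rise of all 77. It was 193, 199 and 141 FPKM under PBS and 333, 334 and 316 FPKM under anti-PD-1. The treated libraries were close together and all far above the PBS libraries. The difference was 0.89 ± 0.117 (limma adjusted p = 0.000241). Rpl28 was 203, 203 and 170 FPKM and 297, 314 and 341 FPKM, a rise of 0.72 ± 0.107 (limma adjusted p = 0.000491). Of the Mdm2-binding pair, Rpl11 was 114, 112 and 144 FPKM and 172, 183 and 174 FPKM, and Rpl5 was 161, 173 and 155 FPKM and 191, 229 and 208 FPKM. Neither overlapped, and they rose by 0.52 ± 0.115 and 0.36 ± 0.0894 (limma adjusted p = 0.0046 and 0.00849). Rpl3, of the peptidyl transferase centre, rose by 0.48, Rpl22 by 0.44, the late-joining Rpl10 by 0.40, Rpl39 by 0.35 and the very short Rpl41 by 0.31. Their limma adjusted p-values were 0.0025, 0.00783, 0.00217, 0.00882 and 0.0408, and the call of Rpl41 was lost under 7 of 13 alternatives. Genes that were not called, named after their values were seen, include Rpl26 (0.40, limma adjusted p = 0.0536), Rpl10a (0.28, adjusted p = 0.0675) and Rpl4 (0.23, adjusted p = 0.0932). Genes with and without a pyrimidine run at the annotated start had medians of 0.60 (n = 27) and 0.51 (n = 30).

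**Figure D2:**
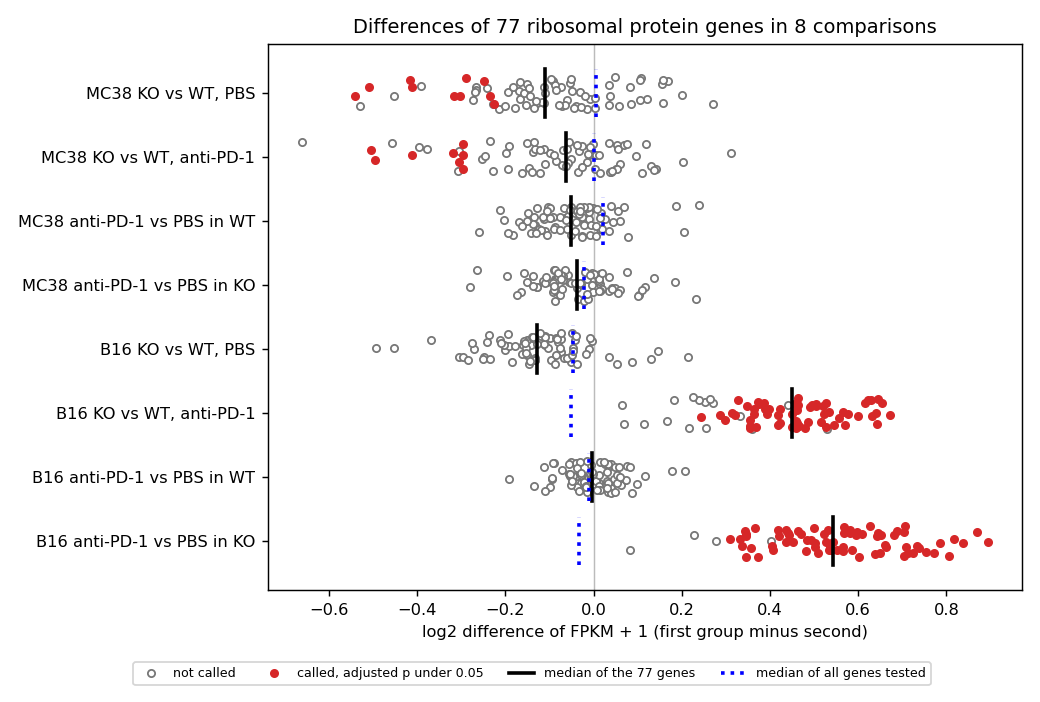
Log2 difference of FPKM + 1 for the 77 tested genes in 8 comparisons, first group minus second. Red filled points passed the test (adjusted p under 0.05), open points did not, and the black and dotted blue lines are the medians of the 77 genes and of all genes tested. The 77 lie almost wholly to the right in both comparisons with B16 KO anti-PD-1 (medians 0.54 and 0.45) and close to 0 or slightly to the left elsewhere.

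Several other measures moved with this comparison. Among other protein-coding genes the difference fell with transcript length, from a median of 0.26 for transcripts of at most 500 bases to -0.48 for those over 5000 bases. The 77 genes have a median transcript length of 628.5 bases, and their own medians were 0.61, 0.53, 0.53 and 0.64 in the length classes up to 500, 700, 900 and 1200 bases, against 0.26, 0.16, 0.12 and 0.13 for other genes of those lengths. With each library centred within 20 length bins, an alternative added after the data were seen, 52 of 77 genes were still called higher and the median was 0.41. The share of all genes called higher was then 17.4%. Macrophage markers (7 genes) summed to 484 to 1254 FPKM in B16 KO anti-PD-1 against 94.1 to 240 FPKM in KO PBS, and all 7 were called higher. T cell markers (7 genes) summed to 6.58 to 19.4 FPKM in B16 KO anti-PD-1 against 0.47 to 5.22 FPKM in the other B16 groups, and all 3 of them that were tested were called higher. Fibroblast markers (5 genes) summed to 29.3 to 210 FPKM against 7.72 to 13.3 FPKM in KO PBS, with 3 of 5 called higher, and fat markers (3 genes) to 15.04 to 43.96 FPKM against 4.71 to 8.002 FPKM, with 2 of 2 tested called higher. Erythroid markers (4 genes) summed to 1012 to 15524 FPKM against 198 to 3632 FPKM, and 0 of 4 were called. Skeletal muscle markers were called higher for 4 of 4 tested. In each of the other B16 groups, 10 of the 12 muscle markers stayed under 1 FPKM in every library. Acta1 and Tnnt3 passed the filter only through B16 KO anti-PD-1, so their calls were largely fixed in advance. All 7 T cell markers were under 1 FPKM in both B16 PBS groups. The tested ones thus passed the filter only through anti-PD-1 libraries. Melanocyte markers were split, with 1 of 5 called higher (Mlana 0.64) and 2 called lower (Tyr -0.61, Tyrp1 -0.94). The part of any of these cell types in the result was not tested. Scaling all libraries to equal sums of protein-coding genes moved the median of all genes from -0.03 to -0.18 and the split of calls to 10.2% higher and 35.5% lower. On that scale the median of the 77 was 0.33, against the -0.18 of all genes, and 50 were called higher.

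**Figure D3:**
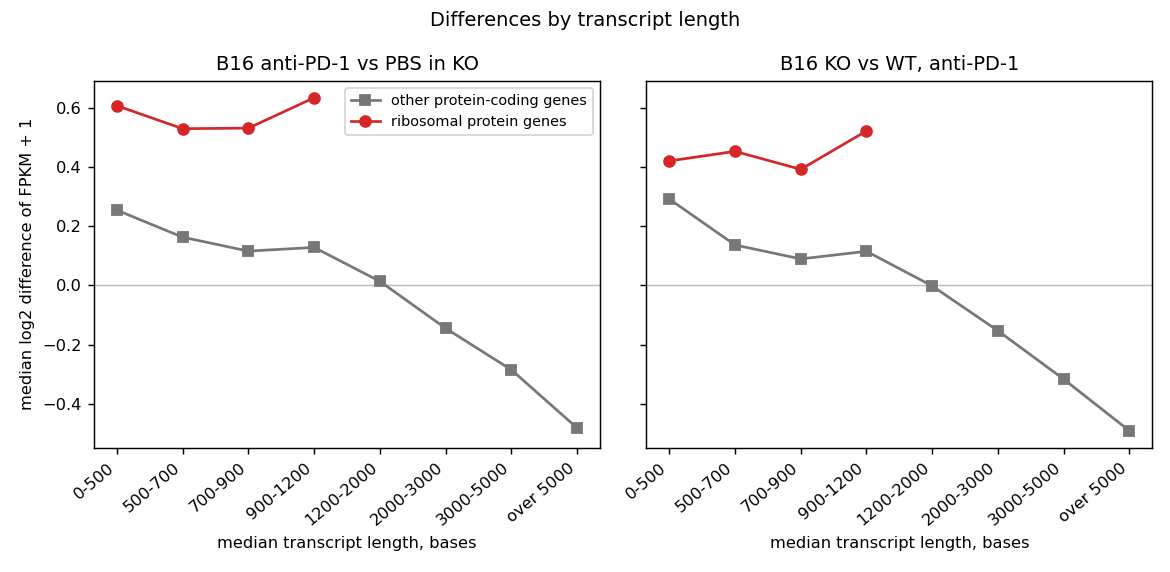
Median log2 difference by transcript length (bases) in the comparisons with B16 KO anti-PD-1, for the 77 ribosomal protein genes and for other protein-coding genes. The line of other genes falls from 0.26 to -0.48 in the comparison with KO PBS, while the ribosomal protein genes stay between 0.53 and 0.64.

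The same 3 B16 KO anti-PD-1 libraries were also set against B16 WT tumours under anti-PD-1. Here 61 of 77 genes were higher in KO and none was lower, against 14.9% of all genes called higher and 46.4% of other genes at 50 FPKM or more. The median was 0.45, with a range of 0.06 to 0.67 and all 77 above 0, against -0.05 over all genes. The called genes were 23 of 30 in the small subunit, 36 of 43 in the large subunit and 1 of 3 in the stalk, and Rps27l. Rplp2 was 144, 109 and 106 FPKM in WT against the KO values of 178 to 203 FPKM given above, without overlap (0.67 ± 0.156, limma adjusted p = 0.00605). Rpsa was 519, 424 and 490 FPKM in WT (0.65 ± 0.145, limma adjusted p = 0.00464) and Rpl28 was 231, 185 and 193 FPKM (0.65 ± 0.107, limma adjusted p = 0.00096). All KO libraries lay above all WT libraries for both genes. Rpl11 and Rps6 were higher by 0.52 and 0.63, both called. Rplp0 (0.33, limma adjusted p = 0.0837), Rplp1 (0.44, adjusted p = 0.0701), Rpl5 (0.22, adjusted p = 0.0732), Rpl10 (0.17, adjusted p = 0.107) and Rps27 (0.11, adjusted p = 0.552) did not pass. Other genes again ran with length, from a median of 0.29 for the shortest to -0.49 for the longest transcripts, while the 77 had 0.42, 0.45, 0.39 and 0.52 in their 4 length classes. Macrophage markers summed to 105 to 528 FPKM in WT, which overlaps the KO range, and 3 of 7 were called higher. Skeletal muscle markers were called higher for 4 of 4 tested, T cell markers for 2 of 3 and fat markers for 1 of 2, and fibroblast markers for 0 of 5. The muscle and T cell calls carry the same limit of the filter as above. Melanocyte markers were called higher for 1 of 5 and lower for 2. The part of these cells in the result was not tested. The size of this result depended on the scaling more than that of the treatment comparison. With equal protein-coding sums 21 genes were called (median 0.20, with all genes at -0.23 and calls split 5.65% higher and 39.9% lower). With length-bin centring 39 were called (median 0.32). Of all genes 16.005% were then called higher and 19.24% lower, with a median of 0.026.

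Outside that group no B16 comparison had a called member. For anti-PD-1 against PBS in B16 WT, 0 of 77 genes passed limma and 0 had an unadjusted p under 0.05, where 0.0% of all genes were called and 281 had such a p. The median was 0.00, with a range of -0.19 to 0.21. For KO against WT under PBS in B16, 0 of 77 passed, against 0.47% of all genes called at the same adjusted threshold. At the looser unadjusted p under 0.05 there were 10 of 77, for which no share over all genes is given here. This count is therefore not read as a result about these genes. The median was -0.13, against -0.05 over all genes, and 71 of 77 genes were below 0. Leaving out 1 library at a time moved the median of the 77 between -0.16 and -0.07. The third KO PBS library was the one with the lowest summed level. The KO libraries lay wholly below the WT libraries for 23 genes, against 13.7% of all genes. Rps21, of the small subunit, showed this: it was 287, 300 and 270 FPKM in WT and 217, 205 and 186 FPKM in KO. The treatment response of KO minus that of WT, the interaction, was above 0 for all 77 genes (median 0.55) and called for 53, against 8.9% of all genes called higher and 29.0% of other genes at 50 FPKM or more. It uses the same B16 KO anti-PD-1 libraries as the comparisons above and is no separate evidence. The largest were Rplp2 (0.97, limma adjusted p = 0.0115) and Rpl13 (0.95, adjusted p = 0.0036). Rps6 (0.49, adjusted p = 0.0516), Rplp0 (0.57, adjusted p = 0.0613) and Rpl5 (0.35, adjusted p = 0.0693) missed the threshold. With equal protein-coding sums or with length-bin centring the count was 16 in each case. The shares of all genes called higher were then 3.27% and 5.87%.

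In MC38 the picture was another. Under PBS, 10 of 77 genes (13.0%) were lower in KO and none was higher, against 11.6% of all genes called lower and 20.4% of other genes at 50 FPKM or more, so the share was near the background. The median was -0.11, with a range of -0.54 to 0.27 and 58 of 77 below 0, against 0.01 over all genes. Under anti-PD-1, 8 of 77 (10.4%) were lower in KO and none was higher, against 7.05% of all genes called lower and 14.0% of the other highly expressed genes, with a median of -0.06. The counts changed when single libraries were left out. Under PBS they were 4, 6, 3 and 4 without WT replicate 2, WT replicate 3, KO replicate 1 and KO replicate 2, the second of these with 2 higher and 4 lower. Under anti-PD-1 they were 4, 2, 3 and 1 without WT replicate 1, WT replicate 3, KO replicate 2 and KO replicate 3. Shares over all genes in these fits are not given, so whether the drop is particular to these genes was not tested. T cell markers were also lower in MC38 KO under PBS, at 2.94 to 5.10 FPKM against 20.4 to 32.7 FPKM in WT, as were macrophage markers, at 496 to 1258 FPKM against 1634 to 1916 FPKM. Under anti-PD-1 T cell markers summed to 24.1 to 37.2 FPKM in KO and 24.3 to 29.2 FPKM in WT, and 0 of 7 were called. Macrophage markers then summed to 1756 to 2326 FPKM in KO and 1590 to 1813 FPKM in WT, also with 0 of 7 called. The part of these cells in the differences was not tested.

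Some single genes fell in MC38 KO. Rps4x, the X-linked small-subunit gene at chrX:102184941-102189394 (mm10), was 956, 1056 and 1062 FPKM in WT PBS and 740, 759 and 802 FPKM in KO PBS. Under anti-PD-1 it was 1060, 924 and 1110 FPKM in WT and 769, 700 and 706 FPKM in KO. WT and KO did not overlap under either treatment. It fell by 0.42 ± 0.0813 under PBS and by 0.50 ± 0.0813 under anti-PD-1 (limma adjusted p = 0.00513 and 0.00371), and both calls held under each alternative tried. Rpl24, a large-subunit protein that forms a bridge to the small subunit, was 406, 460 and 477 FPKM in WT PBS and 299, 302 and 319 FPKM in KO PBS. Under anti-PD-1 it was 412, 393 and 458 FPKM in WT and 341, 321 and 287 FPKM in KO. The ranges again did not touch. Rpl24 fell by 0.54 ± 0.0874 under PBS and by 0.41 ± 0.0874 under anti-PD-1 (limma adjusted p = 0.00207 and 0.0134), the second call being lost without KO anti-PD-1 replicate 3. Rps21 was 233, 237 and 300 FPKM in WT PBS and 168, 174 and 194 FPKM in KO PBS, without overlap, a fall of 0.51 ± 0.119 (limma adjusted p = 0.0118). In the treated tumours its difference was -0.40 (limma adjusted p = 0.0537). Rpl26, which can bind p53 messenger RNA, was 502, 419 and 470 FPKM in WT anti-PD-1 and 356, 328 and 302 FPKM in KO anti-PD-1. It fell by 0.49 there (limma adjusted p = 0.0284), a call lost under 6 of 13 alternatives, and under PBS its groups overlapped (-0.17, limma adjusted p = 0.363).

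**Figure D4:**
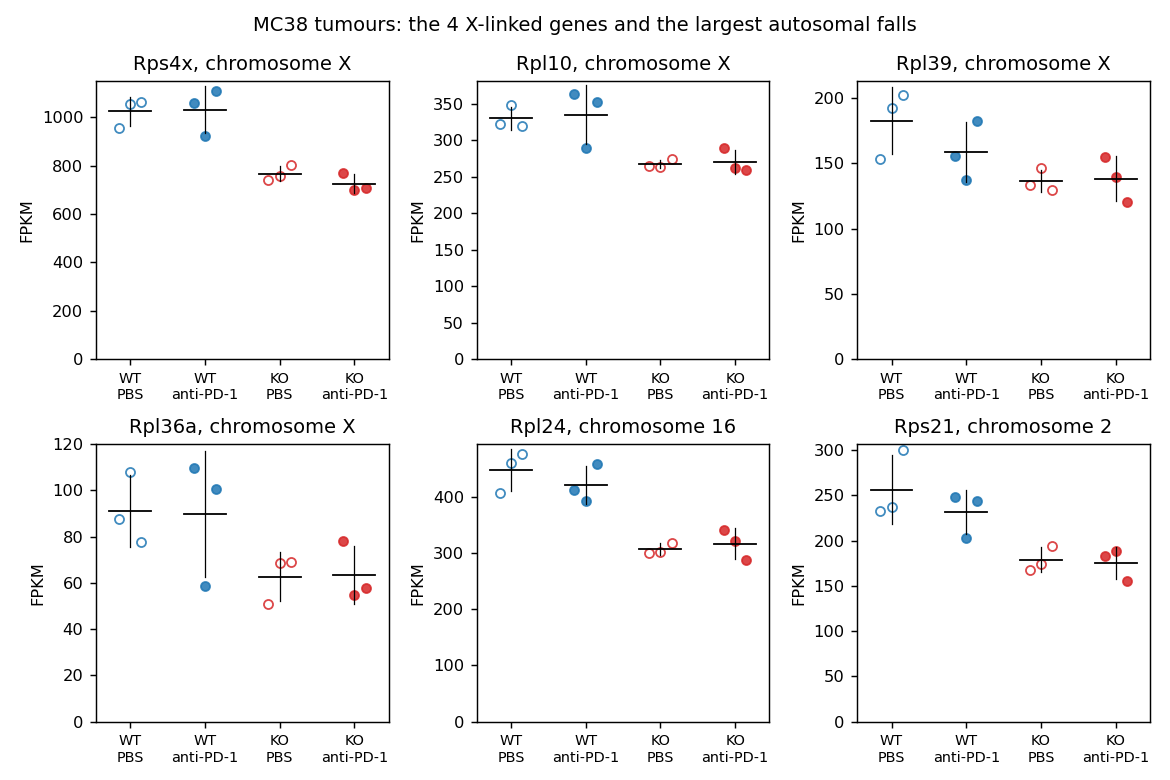
FPKM of the 4 X-linked genes (Rps4x, Rpl10, Rpl39, Rpl36a) and of Rpl24 and Rps21 in the 12 MC38 libraries, with the mean ± SD of 3 libraries as bars (blue WT, red KO, open PBS, filled anti-PD-1). KO libraries of Rps4x lie at 740 to 802 FPKM against 956 to 1062 FPKM in WT under PBS, while the groups of Rpl10, Rpl39 and Rpl36a overlap under anti-PD-1.

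The genes are scattered over the chromosomes, and 4 of the 77 lie on the X chromosome. This grouping was made after their values were seen. Beside Rps4x these are Rpl10 (chrX:74270812-74273135, mm10), Rpl39 and Rpl36a. Under PBS in MC38, Rpl10 was 322, 349 and 319 FPKM in WT and 265, 263 and 274 FPKM in KO, and Rpl39 was 154, 193 and 202 FPKM in WT and 134, 146 and 130 FPKM in KO. Neither overlapped. They fell by 0.30 ± 0.0872 and 0.41 ± 0.132 (limma adjusted p = 0.0294 and 0.0449), but these calls were lost under 7 and 10 of 13 alternatives. Rpl36a was 87.7, 108 and 77.6 FPKM in WT and 50.7, 68.4 and 69.2 FPKM in KO and did not pass (-0.53, limma adjusted p = 0.121). The 374 other protein-coding X genes had a median of -0.16 with 27.8% called lower, against 12.8% of protein-coding genes on all chromosomes. Of the 73 genes elsewhere, 7 were called lower. In B16 KO PBS, Rps4x was 632, 661 and 582 FPKM against 724, 726 and 717 FPKM in WT PBS, without overlap and not called.

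Anti-PD-1 against PBS gave no called ribosomal protein gene in MC38. In WT, 0 of 77 passed limma, where 0.0% of all genes were called, and 1 had an unadjusted p under 0.05. The median was -0.05, against 0.02 over all genes. In KO, 0 of 77 passed, against 8.99% of all genes called, and 2 had an unadjusted p under 0.05. The median was -0.04, against -0.02 over all genes. The interaction was called for 0 of 77, against 2.44% of all genes, and 0 had an unadjusted p under 0.05. The unadjusted counts for MC38 have no share over all genes beside them and are descriptive only.

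Genes around the ribosome were read from lists of related functions. Beside the 80, 8 other ribosome genes outside the symbol pattern were tested. In B16 KO, 7 of the 8 were higher under anti-PD-1 than under PBS (median 0.46), among them the scaffold Rack1, at 136, 149 and 127 FPKM against 231, 234 and 234 FPKM (0.76, limma adjusted p = 8.42e-05), Rps3a1 (0.52) and Rpl36al (0.48). Of 78 mitochondrial ribosomal proteins, 50 were higher and none lower (median 0.37). Their summed level was 1840, 1907 and 1706 FPKM in B16 KO anti-PD-1 and 1263 to 1452 FPKM in the other 9 B16 libraries. For these lists, the shares over all genes tested are 18.9% called higher and 25.01% called lower. Translation factors were mixed, with 14 higher and 7 lower of 38 (median 0.20). Short subunits of the initiation factor eIF3 rose (Eif3k 0.78, Eif3f 0.69), as did the elongation factor subunit Eef1b2 (0.59), while the large eIF3 subunit Eif3a fell by 0.62. Of 34 assembly and nucleolar genes, 11 were higher and 3 lower (median 0.05), led by the subunit-joining factor Eif6 (0.74), the snoRNP protein Nhp2 (0.67) and Rrp9 (0.62), while Tsr1 fell by 0.64. RNA polymerase I genes showed 2 higher and 2 lower of 14 (median -0.04). Of 19 genes of mTORC1, the S6 kinases and Myc, 1 was higher, the Myc partner Max (0.84), and 7 were lower (median -0.19), among them Sesn3 (-1.07), Sesn2 (-0.57) and the S6 kinase gene Rps6kb1 (-0.52). The median transcript lengths of the lists differed, 628.5 bases for the 77 genes and 1827 bases for the mTORC1 list, and length moved with the difference as described. Of 11 genes of p53 and its Mdm2 loop, 2 were higher and 3 lower (median 0.11).

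In MC38 KO under PBS the same lists gave other counts. Of the 8 other ribosome genes, 2 were lower: Rack1 (-0.26) and Rpl22l1 (-0.75), the paralog of Rpl22. Rpl22l1 was 50.5, 65.0 and 72.3 FPKM in WT PBS and 30.04, 34.9 and 46.0 FPKM in KO PBS, and 85.6, 61.9 and 71.7 FPKM in WT and 37.6, 38.9 and 30.5 FPKM in KO under anti-PD-1. WT and KO were apart in both, and it fell by 0.75 ± 0.180 and 1.01 ± 0.180 (limma adjusted p = 0.0132 and 0.006). Rpl22 itself differed by 0.17 and 0.14 (limma adjusted p = 0.556 and 0.667). Under PBS, 11 assembly and nucleolar genes were higher and 1 lower of 34 (median 0.15), with Lsg1 (0.64), Nop2 (0.59) and Rrp12 (0.51) up and Eif6 down (-0.54). Translation factors were 6 higher and 2 lower of 38, RNA polymerase I genes 3 higher and 1 lower of 14, and mitochondrial ribosomal proteins 7 higher and 7 lower of 78. Over all genes 11.9% were called higher and 11.6% lower, so several of these shares were near the background. Of the mTORC1 list 3 of 19 were higher and 2 lower, with the stress-induced mTORC1 inhibitors Ddit4 (1.55) and Sesn2 (1.00) up and Sesn1 (-0.83) and Sesn3 (-0.44) down. Of 12 p53 genes 4 were higher and 1 lower, with the p53 target Cdkn1a at 1.32, while Rps27l, also a p53 target, did not pass (-0.15, limma adjusted p = 0.172).

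The lines had ribosomal protein genes at similar overall levels and in largely similar proportions, with some single genes far apart. Mean levels of the 77 genes in MC38 and in B16 correlated with r = 0.95 on the log2 scale. Between MC38 and B16 WT PBS tumours, 30 of 77 genes were higher in MC38 and 10 lower, against 31.1% and 31.2% of all genes called higher and lower, and the median was 0.05. Line and any processing batch cannot be told apart. The lower ones were few and some very distinct. Rpl36 was 591, 561 and 646 FPKM in MC38 and 1433, 1409 and 1319 FPKM in B16, and Rpl32 was 622, 624 and 662 FPKM and 1176, 1165 and 1067 FPKM. The lines were far apart for both. They differed by -1.21 ± 0.113 and -0.84 ± 0.0851 (limma adjusted p = 1.68e-08 and 5.65e-08). Rplp1 differed by -0.58 (limma adjusted p = 0.00188). In the other direction Rps12 was 223, 235 and 286 FPKM in MC38 and 131, 129 and 121 FPKM in B16, higher by 0.95 (limma adjusted p = 2.18e-06). Rpl37 was higher by 0.76 and Rps20 by 0.74. The small-subunit sum was divided by the sum of the large-subunit and stalk genes, with the paralogs left out of both. This ratio was 0.57 to 0.60 in MC38, 0.534 to 0.550 in B16 KO anti-PD-1 and 0.500 to 0.524 in the other B16 libraries. These sets did not overlap. With the named pseudogenes added to their parents, the differences of Rpl36, Rpl32, Rplp1, Rps12, Rpl37 and Rps20 kept their direction and their calls.

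**Figure D5:**
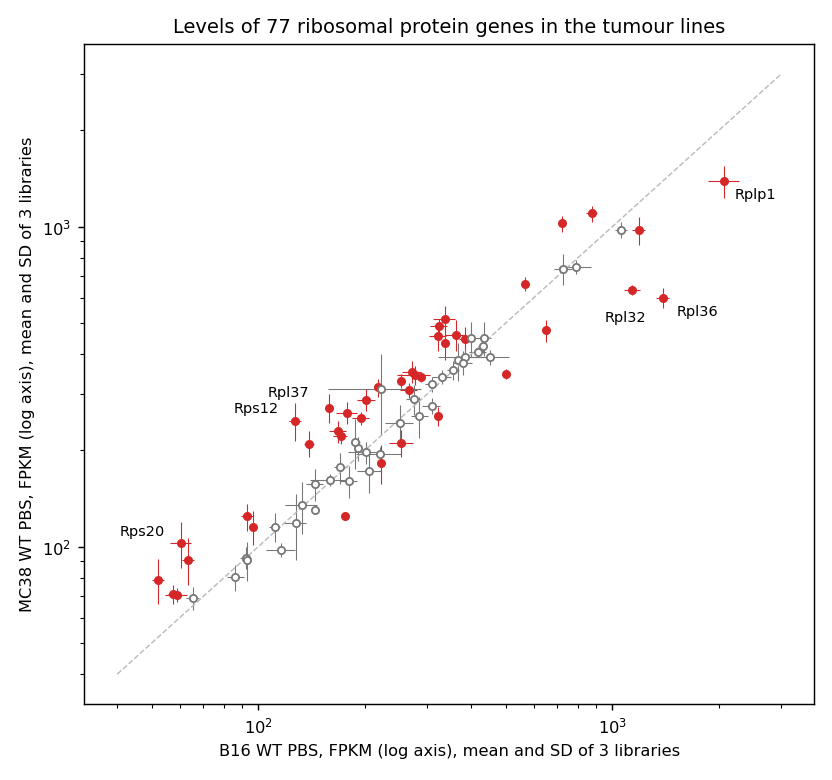
Mean FPKM ± SD of 3 libraries for the 77 genes in MC38 WT PBS (vertical, log axis) against B16 WT PBS (horizontal, log axis). The dashed line marks equal levels, red filled points passed the test and open points did not; Rpl36, Rpl32 and Rplp1 lie below the line and Rps12, Rpl37 and Rps20 above it.

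The KO effect under PBS differed between the lines for 2 of 77 genes, 1 in each direction, against 6.02% of all genes called higher and 3.44% called lower in MC38 relative to B16. For Rpl24 the MC38 effect minus the B16 effect was -0.53 ± 0.117 (limma adjusted p = 0.0082). In B16 it was 394, 386 and 368 FPKM in WT PBS and 369, 387 and 383 FPKM in KO PBS, with overlap, whereas in MC38 the groups were apart as given above. For Rps2, at the messenger RNA entry channel, it was 0.47 ± 0.146 (limma adjusted p = 0.0468). Rps2 was 463, 387 and 495 FPKM in WT and 512, 520 and 585 FPKM in KO in MC38, and 421, 399 and 374 FPKM in WT and 354, 344 and 337 FPKM in KO in B16. The direction was opposite in the lines, but the call was lost under 15 of 19 alternatives.

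The genes varied together across libraries, more so in B16. The correlation of each gene with the mean of the others on the log2 scale had a median r of 0.94 over the 12 B16 libraries, and 69 of 77 genes exceeded 0.8. Without B16 KO anti-PD-1 the median was 0.82 over 9 libraries, with 47 of 77 over 0.8, and Rpl36a was lowest at -0.62. In MC38 the median was 0.71 over 12 libraries, 31 of 77 exceeded 0.8, and Rpl29 was lowest at -0.27. These values share the libraries and their scaling and are descriptive.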

How the data were processed

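Total RNA of whole tumours was extracted with Trizol and made into libraries by a standard Illumina protocol, per the labels' protocols. The submitters' processing notes name FastQC, STAR 2.5, Cuffnorm, DESeq and the mm10 build, without role or order. The deposited values, 1 column per library for 55335 genes, are FPKM as judged from the values; strand use and the handling of reads that map to several places are not given in the sources used here. Read depth was derived from the smallest step between low values of genes.

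Gene symbols, types and lengths came from GENCODE M21 for 55154 gene IDs; 181 IDs had no match. Genes at 1 FPKM or more in at least 3 libraries were tested on log2(FPKM + 1) with limma 3.58.1 (R 4.3.3, trended empirical Bayes) in a model of group means, over the 12 libraries of a line or all 24 for comparisons between lines, with Benjamini-Hochberg adjustment over all genes tested (14209 in MC38, 13627 in B16, 15655 for both). A fold on this scale understates the change of low genes. Called means an adjusted p under 0.05; no overlap means that all libraries of a group lie above or below all of the other. Promoter sequences came from RefSeq (GRCm38.p6), coding sequences from mm10.

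The fit was tested on simulated data with 200 changed genes. In MC38 KO against WT under PBS (14209 genes) it recovered 22, 58, 82 and 96% of changes of 1.25, 1.5, 2 and 4-fold, and in B16 (13627 genes) 10, 40, 76 and 94%. The gene lists and the rule for naming genes (a set of well-known members, the 3 largest called rises and falls in each comparison, members under the filter, and at most 4 called genes of another list) were chosen, like the members, with earlier results of these data known. Alternatives were a pseudocount of 0.1, no filter, median-of-ratios scaling, equal sums of protein-coding genes, a fit of only the groups compared and leaving out each library; length-bin centring and adding named pseudogenes were chosen after seeing the data. A few items are not reported here.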

Additional observations from a re-analysis of the deposited data

Results flagged for a closer look

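The treatment response of B16 KO tumours differed from that of B16 WT tumours, by the test of the interaction, for 53 of the 77 ribosomal protein genes. Of all genes 8.9% were called higher, and of other genes at 50 FPKM or more 29.0%. The count rests on the same B16 KO anti-PD-1 libraries as the other comparisons. It was much lower with equal protein-coding sums or length-bin centring, as given above. Among the named members the interaction was 0.97 for Rplp2, 0.95 for Rpl13, 0.63 for Rpl11, 0.62 for Rps27a, 0.62 for Rpsa, 0.56 for Rps4x, 0.49 for Rpl3, 0.44 for Rpl39 and 0.36 for Rpl10 on the log2 scale. Those of Rpl10, Rpsa, Rpl39 and Rpl3 were lost under 13, 12, 9 and 7 of 18 alternatives.

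The KO effect under PBS differed between MC38 and B16, by the test of that difference, for 2 members, Rpl24 (-0.53) and Rps2 (0.47). Of all genes 6.02% were called higher and 3.44% lower. The call of Rpl24 held under all 19 alternatives, and that of Rps2 was lost under 15.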

How the results depend on the processing

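No called gene reversed its direction under an alternative. The median over the 77 genes changed sign only where it was near 0 and few or no genes were called: for anti-PD-1 against PBS in WT tumours of both lines, the MC38 interaction (-0.05 with equal protein-coding sums) and the KO effect between lines (-0.04 with median-of-ratios scaling). Without WT PBS replicate 3 the median for MC38 WT was 0.01. For the number of called genes in MC38 KO against WT under PBS (10), no filter gave 3, and length-bin centring or only the groups compared gave 5 each. Of all genes, 11.6% were called lower in the fit used above, and 3.86%, 10.7% and 8.6% under these alternatives in turn. Under anti-PD-1 (8), no filter gave 3, and median-of-ratios scaling, length-bin centring or only the groups compared gave 5 each. Here 7.05% of all genes were called lower in the fit used above, and 2.16%, 7.16%, 6.64% and 5.53% under these alternatives in turn. For B16 KO against WT under anti-PD-1 (61 called, median 0.45), the median was 0.56 with median-of-ratios scaling, equal protein-coding sums gave 21 and 0.20, and length-bin centring 39 and 0.32. For anti-PD-1 against PBS in B16 KO (median 0.54), these last gave 0.33 and 0.41, and for the interaction (53, median 0.55) 16 and 0.34, and 16 and 0.42. The count for the KO effect between lines (2) was 1 with a pseudocount of 0.1, no filter, median-of-ratios scaling, length-bin centring or only the groups compared. Apart from the built-in effect of fewer samples or more genes tested, the cause was not tested.

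Leaving out 1 library at a time gave counts of 3 to 10 and 1 to 10 for MC38 KO against WT under PBS and anti-PD-1, 0 to 1 for anti-PD-1 against PBS in MC38 KO (1 without KO anti-PD-1 replicate 3), 47 to 65 and 65 to 71 for B16 KO anti-PD-1 against WT and against PBS, 39 to 63 for the B16 interaction, 34 to 38 between the lines and 1 to 3 for the KO effect between lines. These counts have no share over all genes beside them. Of 323 named results, 180 were called. Over all alternatives 4146 values stayed on their side of the threshold, 300 lost and 31 gained a call. No paired analysis was possible because the labels carry no replicate numbers shared between groups. FPKM keeps only an inferred depth and 3 libraries a group limit the precision.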
